A study of Mus musculus with 18 samples.

Results

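Genes that restrain T cells or natural killer (NK) cells, namely Ido1, Cd274, Lgals9, Pvr, Nectin2 and H2-T23, were followed in sorted endothelial cells (ECs) of the mouse breast. They are 6 of the 16248 genes with expression values, taken by name, and they had been chosen by the way their values differed among the same 18 libraries. Which of the comparisons guided that choice is not recorded, so every difference between groups in these 6 genes is given below as a description, with its error and no test. All 6 passed the filter on low values used for the tests on other genes.

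Female FVB mice gave ECs from 3 tissues, each injected directly with PBS or with cGAMP (3'3'-cGAMP), a cyclic dinucleotide that activates STING, and sampled 3 hr later. The normal group was the tumour-free fat pad of the breast in wild-type animals, whose age the labels do not state. The MMTV-PyMT group was the spontaneous breast tumours of mice in which the MMTV promoter drives a viral oncogene in mammary epithelium, treated from 9 weeks of age. The implanted group was tumours grown in wild-type FVB hosts aged 8 to 9 weeks from MMTV-PyMT tumour cells that had been expanded in culture and placed in the fat pad with Matrigel, so its ECs came from a host without the transgene. Each of the 6 groups had 3 libraries, numbered 1 to 3 in the labels. ECs were enriched with anti-CD31 beads and sorted as live, CD45-negative and CD31-positive cells. The columns of the normal tissue name no tissue and were assigned to it because all others name a tumour.

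STING senses cyclic dinucleotides in the cytosol and switches on type I interferon and NF-κB programmes within hours. Interferons are textbook inducers of Cd274 (PD-L1), the ligand of the PD-1 receptor on T cells, and of Ido1, the enzyme that opens the kynurenine pathway by consuming tryptophan. Lgals9 (galectin-9) is a sugar-binding lectin that binds TIM-3 among other receptors. Pvr (CD155) and Nectin2 (CD112) are adhesion molecules of the nectin family read by both the inhibitory receptor TIGIT and the activating receptor CD226, and H2-T23 (Qa-1) is a nonclassical MHC class I molecule recognised by the CD94/NKG2A receptor of NK cells.

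In the annotation of the mm10 build, the one the authors aligned to, the genes lie on 5 chromosomes. Ido1 is at chr8:24584136-24597009 on the minus strand, Cd274 at chr19:29367455-29388095 on the plus strand, Lgals9 at chr11:78962974-78984946 on the minus strand and H2-T23 at chr17:36029773-36032855 on the minus strand. Pvr at chr7:19903578-19921160 and Nectin2 at chr7:19716644-19750483 share a strand, the minus one, and stand 153094 bases apart. All 6 are protein coding, and the values below count reads over their exons.

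Promoter windows of 300 bases, from 250 before to 50 after the RefSeq start (GRCm38.p6), were at hand for 4 of the 6 genes. They are shown for Cd274, the gene with the highest fold, and for Lgals9 and H2-T23, the genes whose windows held a match to a motif. Both strands were searched for the core of the interferon-stimulated response element, GAAANNGAAA, for the interferon-gamma activated site (GAS element), TTCNNNGAA, and for the NF-κB consensus. Capitals mark the matches, each of which reads as the reverse complement of the response element, and the lines run 5′ to 3′ in the direction of transcription.
Cd274, chr19:29367188-29367487, plus strand: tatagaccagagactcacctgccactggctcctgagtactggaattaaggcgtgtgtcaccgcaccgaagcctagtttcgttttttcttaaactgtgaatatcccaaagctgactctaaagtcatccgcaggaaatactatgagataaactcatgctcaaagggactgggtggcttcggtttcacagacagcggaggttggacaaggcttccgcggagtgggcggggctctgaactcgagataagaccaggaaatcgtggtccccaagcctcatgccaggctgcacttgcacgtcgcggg
Lgals9, chr11:78984875-78985174, minus strand: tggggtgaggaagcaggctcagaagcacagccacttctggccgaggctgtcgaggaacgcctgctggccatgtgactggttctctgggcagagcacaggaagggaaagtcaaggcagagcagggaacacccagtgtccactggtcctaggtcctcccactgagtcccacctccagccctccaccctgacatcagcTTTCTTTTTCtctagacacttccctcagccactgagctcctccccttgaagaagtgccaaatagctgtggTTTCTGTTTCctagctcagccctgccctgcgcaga
H2-T23, chr17:36032652-36032951, minus strand: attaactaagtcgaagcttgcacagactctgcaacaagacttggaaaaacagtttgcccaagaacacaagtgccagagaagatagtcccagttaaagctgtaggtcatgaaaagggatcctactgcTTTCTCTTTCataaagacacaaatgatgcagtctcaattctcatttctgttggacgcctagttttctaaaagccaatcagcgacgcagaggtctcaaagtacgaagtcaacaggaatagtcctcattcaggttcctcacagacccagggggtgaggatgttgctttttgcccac
The window of Lgals9 held 2 matches to the response element, 1 of them ahead of the start and 1 after it, and that of H2-T23 held 1, beginning 124 bases ahead of the start. No match to any of the 3 motifs lay in the windows of Cd274 or Nectin2. Of all 32851 promoter windows of this length, 3.44% held the response element, 8.3% the GAS element and 8.46% the NF-κB consensus. A match is a likeness of letters and no evidence of binding. The RefSeq start stood 17 bases from that of the annotation for Cd274, 22 for Lgals9, 154 for H2-T23 and 910 for Nectin2.

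Every member had its highest mean in the implanted tumours given cGAMP. On cGAMP, all 3 libraries stood above all 3 PBS libraries for 4 of the 6 genes in the normal fat pad, 5 in the MMTV-PyMT tumours and 6 in the implanted tumours. Among all 13983 tested genes, 20.9%, 14.8% and 22.4% separated upwards in the same way, and since the members were chosen on such values nothing is read from the comparison. The genes that did not separate were Ido1 and H2-T23 in the normal tissue and Ido1 in the MMTV-PyMT tumours. Leaving out normal cGAMP library 2 made all 6 separate in the normal tissue.

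**Figure D1:**
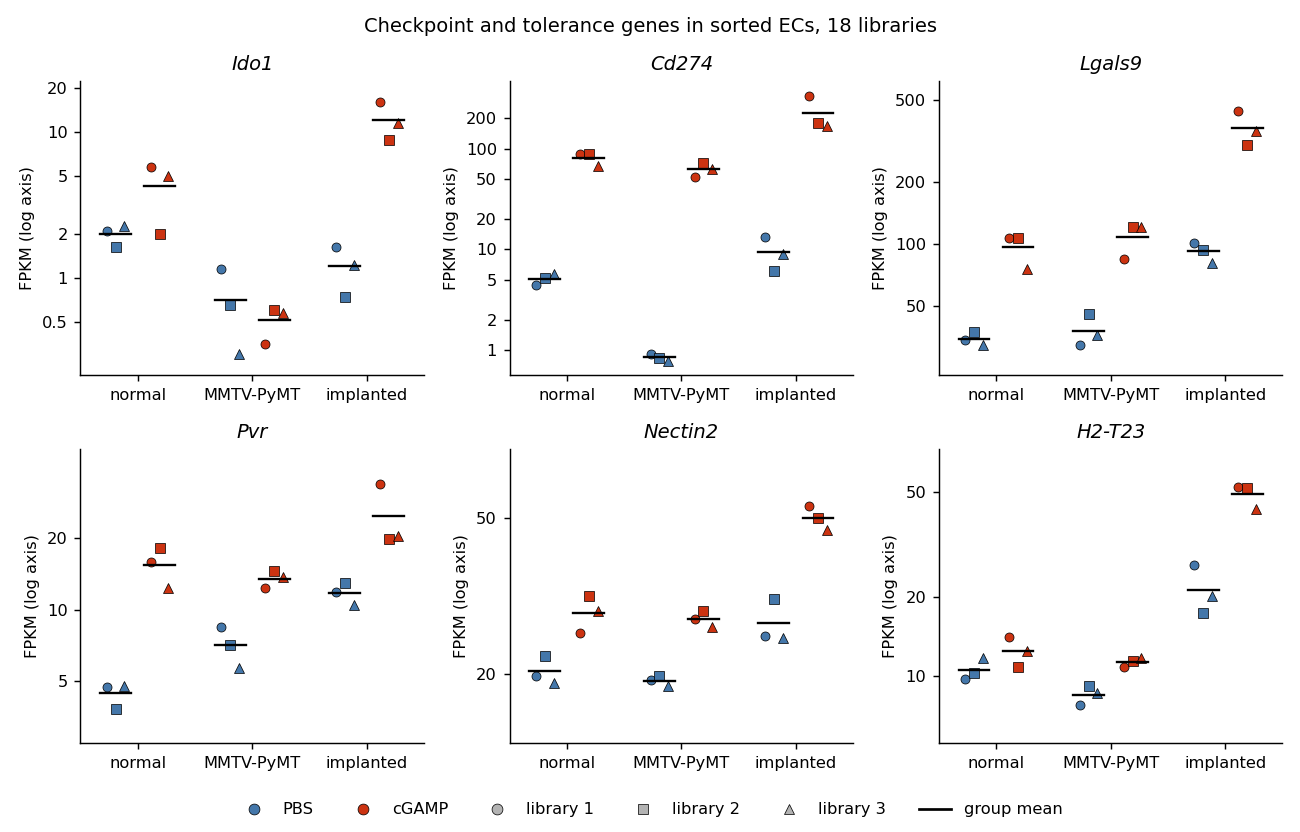
Expression of the 6 genes in each of the 18 libraries, as FPKM on a log axis, by tissue and injection; symbols give the library number and bars the group mean. Cd274 was higher on cGAMP in all 3 tissues, while Ido1 on cGAMP reached 8.86 to 15.9 FPKM in the implanted tumours and stayed at 0.354 to 0.602 FPKM in the MMTV-PyMT tumours.

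Cd274 showed the widest range of the 6 genes. In the PBS libraries it was at 4.37, 5.17 and 5.66 FPKM in the normal fat pad, 0.915, 0.841 and 0.782 FPKM in the MMTV-PyMT tumours and 13.2, 6.05 and 8.97 FPKM in the implanted tumours. No PBS library of one tissue overlapped another, and the MMTV-PyMT tumours were lowest. After cGAMP it was at 87.2, 87.9 and 67.6 FPKM in the normal tissue, 52.2, 71.7 and 62.7 FPKM in the MMTV-PyMT tumours and 334, 181 and 166 FPKM in the implanted tumours. All 9 cGAMP libraries stood above all 9 PBS libraries, and only the normal and MMTV-PyMT cGAMP groups overlapped.

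The mean of Cd274 on cGAMP was 16.0 times that on PBS in the normal tissue (80.9 ± 11.5 against 5.07 ± 0.648 FPKM, SD, n = 3 each). It was 73.5 times as high in the MMTV-PyMT tumours (62.2 ± 9.78 against 0.846 ± 0.0666 FPKM) and 24.1 times as high in the implanted tumours (227 ± 92.8 against 9.42 ± 3.62 FPKM). The fold was highest where the PBS level was lowest, the MMTV-PyMT tumours. On the log2(FPKM + 1) scale, which understates changes from a low level, the differences were 3.75, 5.09 and 4.44, each with an SE of 0.24. The PBS value in the MMTV-PyMT tumours rested on 44, 33 and 36 reads, with exact Poisson 95% intervals that reach from 22.7 to 59.1 reads and cover counting error only.

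Ido1 was the scarcest member, with a clear separation in the implanted tumours alone. It was at 2.09, 1.62 and 2.28 FPKM on PBS and 5.79, 2.0 and 4.99 FPKM on cGAMP in the normal fat pad. Libraries 1 and 3 on cGAMP stood above the PBS range and library 2 lay within it. In the MMTV-PyMT tumours the PBS libraries gave 1.16, 0.657 and 0.302 FPKM and the cGAMP libraries 0.354, 0.602 and 0.581 FPKM, so the groups overlapped throughout. In the implanted tumours it was at 1.64, 0.743 and 1.22 FPKM on PBS and 15.9, 8.86 and 11.5 FPKM on cGAMP, with a wide gap between the groups.

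The mean of Ido1 on cGAMP was 10 times the PBS mean in the implanted tumours (12.1 ± 3.54 against 1.2 ± 0.45 FPKM), 2.14 times in the normal tissue (4.26 ± 2.0 against 1.99 ± 0.339 FPKM) and 0.727 times in the MMTV-PyMT tumours (0.513 ± 0.138 against 0.705 ± 0.429 FPKM). The log2 differences were 2.55, 0.73 and -0.15, each with an SE of 0.27. In the MMTV-PyMT tumours the cGAMP libraries held 7 to 11 reads and the PBS libraries 7 to 28 reads of Ido1, so a modest difference in either direction was not detectable at this depth, and the log2 difference was 0.04 without PBS library 1. The 6 groups ran from implanted cGAMP through normal cGAMP, normal PBS, implanted PBS and MMTV-PyMT PBS to MMTV-PyMT cGAMP, and only the first step of that order was free of overlap.

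Leukocytes also express Ido1, so markers of theirs were summed over 11 of 15 listed genes present in the table. In the normal cGAMP libraries 1, 2 and 3 the sum was 119, 24.9 and 26.7 FPKM, beside Ido1 levels of 5.79, 2.0 and 4.99 FPKM. Library 1 was highest and library 2 lowest in both. In the implanted tumours the sum was 58.3, 35.4 and 79.7 FPKM on PBS and 70.7, 312 and 60.7 FPKM on cGAMP. The Ido1 levels of the latter 3 were 15.9, 8.86 and 11.5 FPKM, and without library 2, with the highest sum, the log2 difference of Ido1 was 2.74. The part of leukocytes in the Ido1 values was not tested.

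Lgals9 was the most abundant member in every group. On PBS it was at 33.9, 37.1 and 32.0 FPKM in the normal tissue, 32.0, 45.4 and 36.0 FPKM in the MMTV-PyMT tumours and 101, 93.4 and 80.6 FPKM in the implanted tumours. On cGAMP it was at 107, 106 and 75.7 FPKM, 84.7, 120 and 120 FPKM, and 442, 303 and 355 FPKM in the same order of tissues. The cGAMP libraries stood above the PBS libraries of their own tissue in all 3 tissues, and the implanted PBS libraries lay among the cGAMP libraries of the normal and MMTV-PyMT tissues.

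The means of Lgals9 differed 2.8-fold in the normal tissue (96.0 ± 17.6 against 34.3 ± 2.61 FPKM), 2.86-fold in the MMTV-PyMT tumours (108 ± 20.3 against 37.8 ± 6.87 FPKM) and 4.01-fold in the implanted tumours (367 ± 70.2 against 91.5 ± 10.1 FPKM). The log2 differences were 1.44, 1.49 and 1.98, each with an SE of 0.17. Its lowest library held 740 reads, the most of any member's lowest library.

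The TIGIT and CD226 ligands Pvr and Nectin2 were both higher on cGAMP in each tissue, Pvr by more. On PBS, Pvr was at 4.72, 3.82 and 4.75 FPKM in the normal tissue, 8.45, 7.07 and 5.67 FPKM in the MMTV-PyMT tumours and 11.9, 13 and 10.5 FPKM in the implanted tumours, 3 ranges that do not overlap. After cGAMP it was at 15.8, 18.2 and 12.3 FPKM, 12.3, 14.5 and 13.7 FPKM, and 34.0, 19.8 and 20.4 FPKM. The normal tissue, lowest on PBS, reached the level of the MMTV-PyMT tumours on cGAMP, whose range overlapped that of the implanted tumours on PBS.

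The mean of Pvr on cGAMP was 3.49 times the PBS mean in the normal tissue (15.4 ± 2.98 against 4.43 ± 0.53 FPKM), 1.91 times in the MMTV-PyMT tumours (13.5 ± 1.12 against 7.06 ± 1.39 FPKM) and 2.1 times in the implanted tumours (24.8 ± 8.06 against 11.8 ± 1.22 FPKM). It was the only member with its largest log2 difference in the normal tissue, at 1.59 against 0.86 and 0.97, each with an SE of 0.18. Library 1 set much of the spread of the implanted cGAMP group, and it had the highest value of that group for all 6 members.

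Nectin2 varied least. It was at 19.8, 22.2 and 19.0 FPKM on PBS and 25.4, 31.6 and 29.0 FPKM on cGAMP in the normal tissue. In the MMTV-PyMT tumours it was at 19.3, 19.8 and 18.7 FPKM on PBS and 27.6, 29.0 and 26.4 FPKM on cGAMP, and in the implanted tumours at 25, 31.1 and 24.7 FPKM on PBS and 53.4, 49.9 and 46.6 FPKM on cGAMP. No cGAMP library overlapped a PBS library of its own tissue. The means differed 1.41-fold (28.7 ± 3.11 against 20.3 ± 1.71 FPKM), 1.44-fold (27.7 ± 1.25 against 19.3 ± 0.544 FPKM) and 1.86-fold (50 ± 3.38 against 26.9 ± 3.64 FPKM), with log2 differences of 0.47, 0.5 and 0.87 and an SE of 0.1.

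H2-T23 stood highest in the implanted tumours on either injection. In the normal tissue it was at 9.73, 10.3 and 11.7 FPKM on PBS and 14.1, 10.8 and 12.4 FPKM on cGAMP, with overlapping groups. The MMTV-PyMT tumours gave 7.77, 9.13 and 8.61 FPKM on PBS and 10.8, 11.4 and 11.7 FPKM on cGAMP, a small difference without overlap. In the implanted tumours it was at 26.3, 17.3 and 20.2 FPKM on PBS and 52.0, 51.6 and 43.2 FPKM on cGAMP, and even the PBS libraries stood above every library of the other tissues.

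The means of H2-T23 differed 1.17-fold on cGAMP in the normal tissue (12.4 ± 1.64 against 10.6 ± 1.03 FPKM), 1.33-fold in the MMTV-PyMT tumours (11.3 ± 0.472 against 8.5 ± 0.688 FPKM) and 2.3-fold in the implanted tumours (48.9 ± 4.97 against 21.3 ± 4.57 FPKM). The log2 differences were 0.21, 0.37 and 1.18, each with an SE of 0.13. H2-T23 has close relatives in the same cluster and the reads of FVB mice were aligned to the genome of another strain, so reads could be shared out among copies, which was not tested. An antisense gene spans all 3083 bases of it, and whether reads were counted by strand is not stated. Antisense genes also overlap Cd274 over 11055 bases, Nectin2 over 5088 and Pvr over 432, introns included. A pseudogene on the opposite strand overlaps Pvr over 573 bases. The part of these overlaps in the values was not tested.

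**Figure D2:**
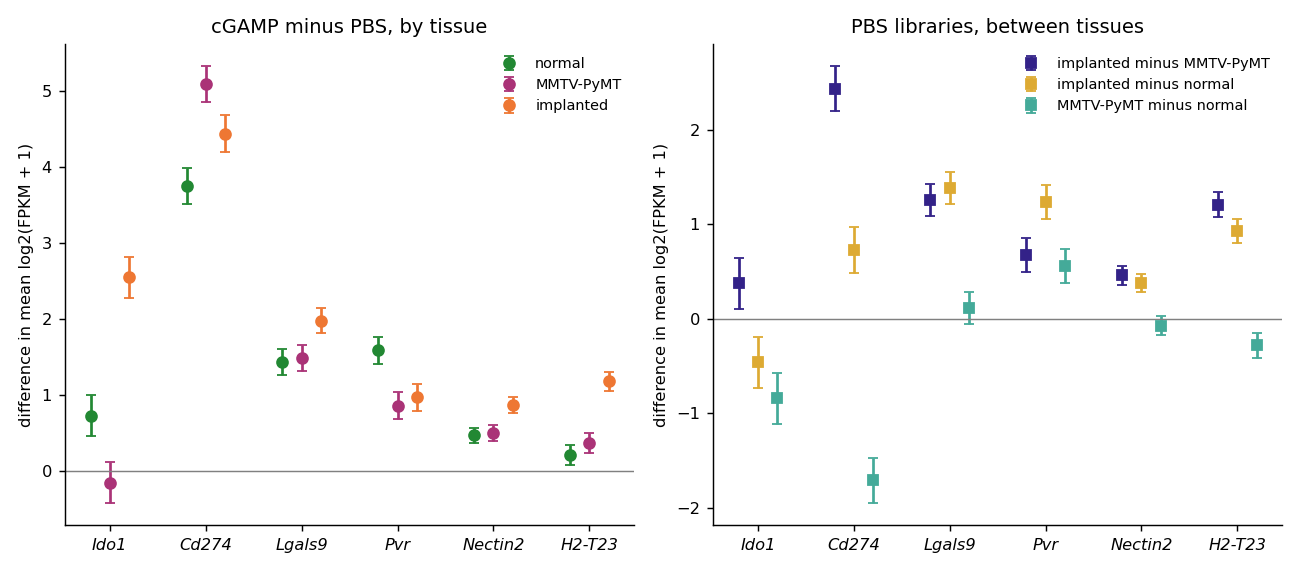
Differences in mean log2(FPKM + 1) of the 6 genes, with SE bars from one limma fit over 18 libraries, for cGAMP minus PBS in each tissue (left) and between tissues on PBS (right). Cd274 lies highest on the left at 3.75 to 5.09, and Ido1 spans from -0.15 to 2.55.

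Before any agonist, these transcripts, apart from Ido1, stood higher in the implanted tumours than in the other tissues. All 3 implanted PBS libraries stood above all 3 MMTV-PyMT PBS libraries for 5 of the 6 genes, and above all 3 normal PBS libraries for 5, against 27.5% and 31.4% of all tested genes. The exception was Ido1 each time. Between the MMTV-PyMT tumours and the normal tissue on PBS, Pvr alone stood above and Ido1, Cd274 and H2-T23 stood below. Among all tested genes, 35.4% separated upwards and 32.3% downwards there. The members were chosen on such values, so nothing is read from any of these shares.

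On the log2 scale the implanted minus MMTV-PyMT differences on PBS were 2.44 for Cd274, 1.26 for Lgals9, 1.21 for H2-T23, 0.68 for Pvr, 0.46 for Nectin2 and 0.38 for Ido1. Against the normal tissue they were 0.73, 1.39, 0.93, 1.24, 0.38 and -0.46 in the same order of genes. The MMTV-PyMT tumours differed from the normal tissue by -1.71 for Cd274, whose mean was 5.99 times higher in the normal tissue, and by -0.84 for Ido1, 0.56 for Pvr, -0.28 for H2-T23, 0.12 for Lgals9 and -0.07 for Nectin2. The SEs are those given for each gene above, and the 3 comparisons share their PBS libraries. As bulk values, these levels cannot separate fewer ECs of a kind from less RNA per cell.

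The signed cGAMP difference was then compared between tissues. For Ido1 it was greater in the implanted than in the MMTV-PyMT tumours by 2.7 log2 units and than in the normal tissue by 1.82, each with an SE of 0.39. H2-T23 followed with 0.81 and 0.97 (SE 0.18), and Lgals9 with 0.49 and 0.54 (SE 0.25). Nectin2 gave 0.37 and 0.4 (SE 0.14). Cd274 gave -0.65 and 0.69 (SE 0.35), the former -1.46 with a pseudocount of 0.1 and -1.59 with limma-voom on recovered reads. Pvr gave 0.11 and -0.62 (SE 0.26). Between the MMTV-PyMT tumours and the normal tissue the cGAMP difference was larger by 1.34 for Cd274 (2.06 and 2.18 with the same alternatives), smaller by 0.88 on the log2 scale for Ido1 (-0.88) and by 0.73 for Pvr (-0.73), and apart by 0.17, 0.04 and 0.03 for H2-T23, Lgals9 and Nectin2. The last 2 values, and that of 0.11 for Pvr, changed sign under scaling by total reads (-0.09, -0.1 and -0.07).

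Several of these differences of effect depended on how the libraries were scaled. With reads recovered from the FPKM steps and scaled by each library's total, the median of all tested genes shifted by -0.248 on cGAMP in the implanted tumours, against -0.014 with the deposited values. The implanted minus normal difference of effect was then 0.66 for H2-T23, 0.35 for Cd274, 0.22 for Lgals9 and 0.09 for Nectin2, read against a median of -0.19 over all genes. Under quantile normalization these values were 0.56, 0.09, 0.1 and 0.03. Those of Ido1 and Pvr were 1.5 and -0.94 with total reads and 1.64 and -0.97 with quantiles. The cGAMP difference itself in the implanted tumours was 0.56 with total reads and 0.51 with quantiles for Nectin2, and 0.87 and 0.81 for H2-T23. No difference between groups without overlap in the 6 genes changed sign under either scaling, and the numbers of genes whose libraries separated on cGAMP remained 4, 5 and 6.

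The sort was checked with marker genes of 5 cell types. All 8 endothelial markers were present and summed to 683 to 1630 FPKM per library. Library 1 of the implanted cGAMP group, highest for all 6 members, also had the highest endothelial sum, at 1630 FPKM, the highest mural and fibroblast sum of the tumour libraries, at 803 FPKM, and the lowest epithelial sum of all 18, at 260 FPKM, with a leukocyte sum of 70.7 FPKM. Of the other cell types, 7 of 7 epithelial markers summed to 260 to 966 FPKM, highest in the MMTV-PyMT tumours. There the epithelial sum was 893, 966 and 945 FPKM on PBS and 866, 616 and 780 FPKM on cGAMP, without overlap. The endothelial sum of the same libraries was 837, 732 and 683 FPKM on PBS and 733, 987 and 870 FPKM on cGAMP. It was below the epithelial sum in every PBS library and in cGAMP library 1. The 8 of 8 mural and fibroblast markers summed to 321 to 1070 FPKM, while 0 of 4 adipocyte markers were in the table. The leukocyte sum was 24.9 to 119 FPKM in the normal tissue, 22.4 to 34.4 FPKM in the MMTV-PyMT tumours, and 35.4 to 79.7 FPKM on PBS and 60.7 to 312 FPKM on cGAMP in the implanted tumours. All 11 leukocyte markers had a positive log2 difference on cGAMP in the implanted tumours and 1, Fcer1g, passed the limma test (Benjamini-Hochberg adjusted p = 0.0289). Of the 8 mural and fibroblast markers 7 were positive there and 2 passed as higher, Dcn by 0.91 and Col1a1 by 0.78 (limma, adjusted p = 0.0083 and 0.0472). Their sum was 408, 421 and 416 FPKM on PBS and 803, 779 and 361 FPKM on cGAMP in libraries 1, 2 and 3. Of the endothelial and epithelial markers 1 each passed as lower, Kdr and Krt19. The part of these cells in the results was not tested.

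**Figure D3:**
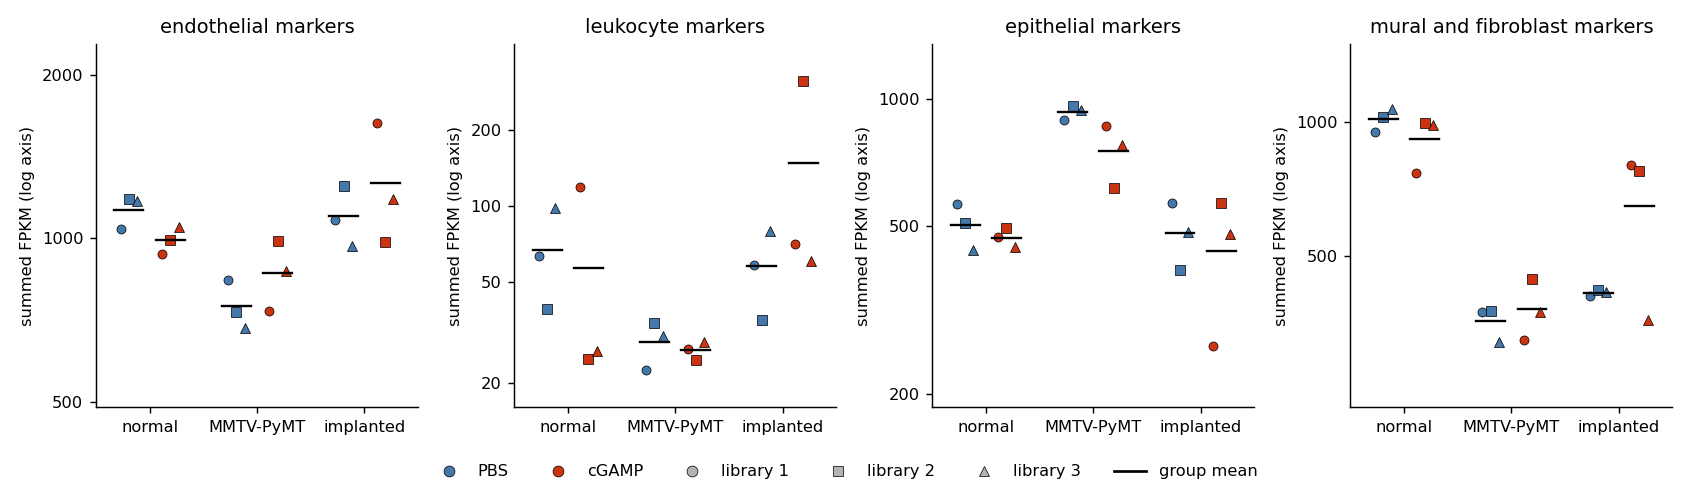
Summed FPKM (log axis) of the marker genes of 4 cell types in each of the 18 libraries, by tissue and injection; symbols give the library number and bars the group mean. Implanted cGAMP library 2 stands apart for leukocyte markers at 312 FPKM.

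Other genes of the same pathways were taken from 8 lists with 93 genes, of which 70 were in the table and 63 passed the filter. A gene was called when its adjusted p was under 0.05 and its log2 difference at least 1 in either direction, in a limma fit across all 13983 genes. On cGAMP, 5 list genes rose in the normal tissue, 7 in the MMTV-PyMT tumours and 20 in the implanted tumours, where 3.02%, 2.49% and 6.13% of all tested genes rose. None of the 63 was called lower, where 0.687%, 0.0715% and 1.09% of all tested genes fell, although 7, 7 and 8 had an unadjusted p under 0.05 in that direction and limma-voom on recovered reads called 0, 0 and 2. The median log2 difference of the list genes was 0.25, 0.2 and 0.62, against -0.045, -0.037 and -0.014 for all tested genes. The implanted count was also 20 without the library rich in leukocyte markers, but not for the same genes. Cd86 lost its call there (0.71, limma adjusted p = 0.0512). Of the 20 calls with all libraries, 7 were lost after quantile normalization and 5 after scaling by total reads. Cd200, Lgals3bp and H2-Q4 were lost under both. List genes called higher and lower there were then 13 and 1, and 15 and 3.

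**Figure D4:**
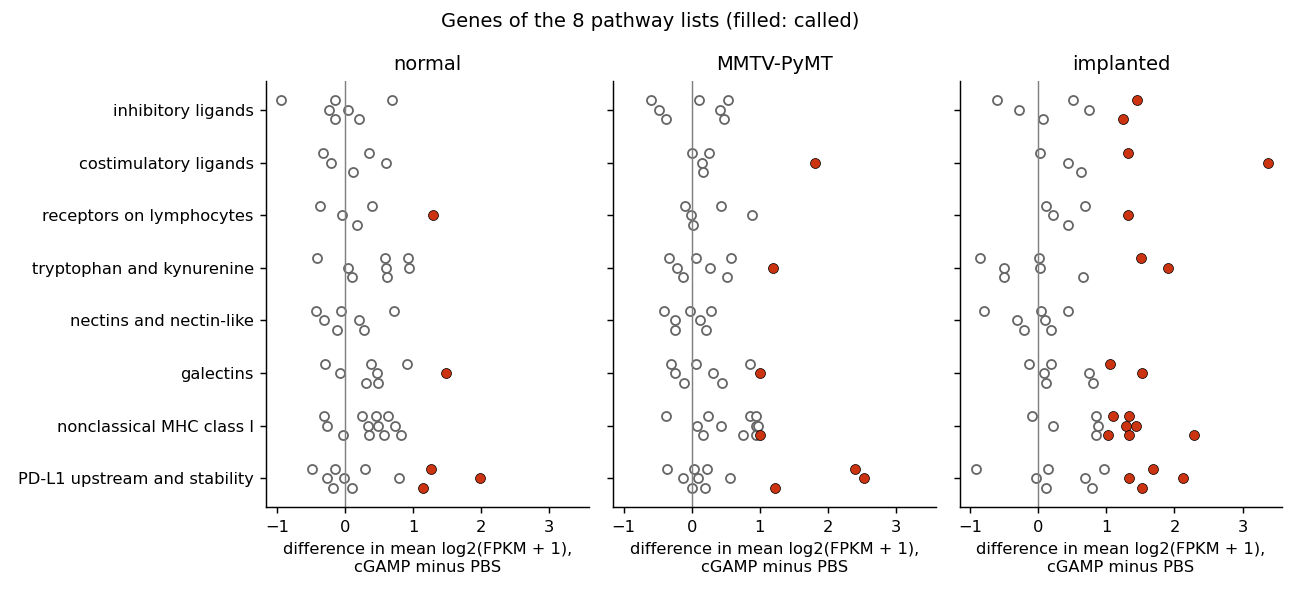
Differences in mean log2(FPKM + 1), cGAMP minus PBS, of the 63 tested genes of 8 pathway lists in each tissue; each point is a gene and filled points were called by limma (5, 7 and 20 genes). The points farthest right are Irf1 in the normal and MMTV-PyMT tissues and Cd40 in the implanted tumours.

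The list of regulators of PD-L1 held the calls shared by the 3 tissues. Of its 11 genes, 3, 3 and 4 rose. Irf1, the interferon regulatory factor that drives Cd274, rose by 1.98, 2.53 and 1.53, and the kinase Jak2 by 1.27, 1.23 and 2.13 (largest adjusted p = 1.94e-05). Jak2 lies 54374 bases from Cd274, while Plgrkt, 64 bases from it, differed by 0.34, 0.13 and 0.4. Cmtm6, which keeps PD-L1 protein at the cell surface, rose in the implanted tumours by 1.33 ± 0.09 (limma, adjusted p = 6.5e-09), and by 0.86 after quantile normalization. Cmtm4, of the same list, went the other way without reaching the fold. It differed by -0.14, -0.36 and -0.91 in the normal, MMTV-PyMT and implanted tissues (limma, adjusted p = 0.316, 0.0309 and 3.25e-06).

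Irf1 was also higher on PBS in the implanted than in the MMTV-PyMT tumours, by 1.06 (limma, adjusted p = 1.08e-05), a call lost without implanted library 1 or MMTV-PyMT library 2 or 3 of the PBS groups, where it was 0.97 to 0.99, and after scaling by total reads (0.91).

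Beside H2-T23, 7 of the 12 tested nonclassical MHC class I genes rose on cGAMP in the implanted tumours, 1 in the MMTV-PyMT tumours and none in the normal tissue, where 8 passed the adjusted p alone. H2-T24, 9212 bases from H2-T23, differed by -0.31 in the normal tissue and rose by 1.01 in the MMTV-PyMT tumours and 2.29 in the implanted tumours (limma, adjusted p = 0.188, 0.00104 and 4.01e-08). Its call in the MMTV-PyMT tumours was lost without PBS library 1 or cGAMP library 2 or 3 (0.83 to 0.98) and under either rescaling (0.97 and 0.9). H2-Q6 rose by 1.43 and H2-Q4 by 1.03 in the implanted tumours (limma, adjusted p = 1.8e-07 and 8.82e-07). H2-Q4 was no longer called without implanted PBS library 2 (0.99) or cGAMP library 1 (0.9). Quantile normalization took away the implanted calls of H2-T10 (0.91), H2-Q6 (0.98) and H2-Q4 (0.58). Scaling by total reads took away those of H2-T22 (0.98), H2-Q1 (0.81) and H2-Q4 (0.71). Only H2-T24 and H2-M3 kept theirs under both. On PBS, 7 of the 12 were higher in the implanted than in the MMTV-PyMT tumours, led by H2-Q7 at 3.53 and H2-Q6 at 3.35 (limma, adjusted p = 5.55e-10 and 1.88e-10). Some of these genes are near copies of each other, and reads can be split among those, which was not tested.

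Among the other inhibitory ligands, 2 of 7 rose on cGAMP, both in the implanted tumours. Cd47, the signal that blocks phagocytosis, rose by 1.45 ± 0.12 and Cd200, the ligand of an inhibitory myeloid receptor, by 1.24 ± 0.14 (limma, adjusted p = 7.38e-08 and 3.74e-06). After quantile normalization these were 0.98 and 0.78 and no longer calls. In the other direction, Vsir (VISTA) passed the adjusted p without reaching the fold at -0.94 in the normal tissue and -0.48 in the MMTV-PyMT tumours, and Vtcn1 (B7-H4) at -0.61 in the implanted tumours, while Vtcn1 was at 0.69 in the normal tissue (limma, adjusted p = 5.5e-05, 0.0201, 0.0359 and 0.0242). On PBS, Cd276 (B7-H3) stood at 4.59 ± 1.27 FPKM in the normal tissue, 24.5 ± 1.96 in the MMTV-PyMT tumours and 57.4 ± 8.86 in the implanted tumours, an order unlike that of Cd274. Tnfrsf14 was higher in the implanted than in the MMTV-PyMT tumours by 1.51 (limma, adjusted p = 2.53e-06).

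Of 5 costimulatory genes, 1 rose in the MMTV-PyMT tumours and 2 in the implanted tumours. Cd40, a receptor that activates antigen-presenting cells, rose by 1.81 ± 0.24 in the MMTV-PyMT tumours and 3.37 ± 0.24 in the implanted tumours (limma, adjusted p = 5.99e-05 and 1.63e-08), the largest change on cGAMP of any list gene. Cd86 rose in the implanted tumours by 1.31 ± 0.38 (limma, adjusted p = 0.0131), to 0.891 to 6.27 FPKM on cGAMP. It was no longer called by limma without cGAMP library 2, rich in leukocyte markers (0.71, adjusted p = 0.0512), or when the groups were fitted alone (adjusted p = 0.0752). Icosl, the ligand of ICOS, was lower on PBS in both tumours than in the normal tissue, at -1.74 in the MMTV-PyMT and -1.89 in the implanted tumours (limma, adjusted p = 2.38e-07 and 9.1e-08).

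Of 5 tested receptors carried by lymphocytes, Lag3 rose in the normal tissue by 1.3 and in the implanted tumours by 1.31 (limma, adjusted p = 0.00166 and 0.00097), with an SE of 0.27. In the MMTV-PyMT tumours Lag3 was higher by 0.88, under the fold limit (limma, adjusted p = 0.0406). Of the partners of the 6 genes, Havcr2 (TIM-3) stayed below the filter and Tigit differed by 0.18, 0.02 and 0.69 (limma, smallest adjusted p = 0.206). Cd226 differed on cGAMP by -0.37, -0.01 and 0.44 (limma, smallest adjusted p = 0.143). On PBS, Cd226 was lower than in the normal tissue at -0.94 in the MMTV-PyMT and -0.97 in the implanted tumours. These passed the adjusted p without reaching the fold (limma, adjusted p = 0.00251 and 0.00228). Btla was lower on PBS in the MMTV-PyMT and implanted tumours than in the normal tissue, at -1.11 and -1.03, calls lost without normal PBS library 3 (-0.74 and -0.66), and for the implanted tumours also without PBS library 2 (-0.9).

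The list around Ido1 gave 2 calls on cGAMP in the implanted tumours among 8 tested genes. Wars, the tryptophanyl-tRNA synthetase induced by interferon, rose by 1.51 ± 0.16, and Tiparp, a target of the aryl hydrocarbon receptor that kynurenine can activate, by 1.91 ± 0.19 (limma, adjusted p = 1.68e-06 and 1.14e-06). Tiparp also rose in the MMTV-PyMT tumours, by 1.2 (limma, adjusted p = 0.000537). In the normal tissue it was higher by 0.94, just under the fold limit (limma, adjusted p = 0.00175). Wars passed the adjusted p at 0.6 in the normal tissue and 0.52 in the MMTV-PyMT tumours (limma, adjusted p = 0.00927 and 0.0448). A link of either gene to Ido1 was not tested. Slc7a5, a tryptophan transporter, stood at 9.33 ± 0.798 FPKM in the normal tissue, 58.7 ± 4.42 in the MMTV-PyMT tumours and 32.9 ± 2.71 in the implanted tumours on PBS, and Cyp1b1, another receptor target, was lower in the MMTV-PyMT and implanted tumours, at -1.12 and -2.09 on the log2 scale. The call in the MMTV-PyMT tumours was lost without normal PBS library 2 (-0.88) or MMTV-PyMT PBS library 3 (-0.85). Ido2, which lies 7802 bases from Ido1, was not analysed here.

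Among 8 tested galectins and their partners beside Lgals9, Lgals8 rose by 1.53 ± 0.12 in the implanted tumours and Lgals12 by 1.48 ± 0.16 in the normal tissue (limma, adjusted p = 5.79e-08 and 8.49e-06). Both also passed the adjusted p as higher in the remaining tissues without reaching the fold. Lgals12 differed by 0.85 in the MMTV-PyMT and 0.81 in the implanted tumours, and Lgals8 by 0.38 in the normal tissue and 0.44 in the MMTV-PyMT tumours. Lgals3bp, a galectin-binding glycoprotein, rose by 1.06 in the implanted and 1.0 in the MMTV-PyMT tumours, calls lost without implanted PBS library 2 (0.93) and without MMTV-PyMT PBS library 1 or 3 or cGAMP library 2 or 3 (0.84 to 0.99). In the normal tissue Lgals3bp was higher by 0.91, just under the fold limit (limma, adjusted p = 0.000457). Nos2, 2719 bases from Lgals9, rose by 2.39 in the implanted tumours (limma, adjusted p = 4.06e-07).

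None of the 7 tested relatives of Pvr and Nectin2 was called on cGAMP in any tissue by limma, while 3, 1 and 3 had an unadjusted p under 0.05 and limma-voom called 1, 0 and 1. Nectin1 differed by -0.06, -0.4 and -0.8 and Nectin4 by 0.28, -0.25 and 0.04. The value of -0.8 passed the adjusted p without reaching the fold (limma, adjusted p = 0.000452). Cadm4 did so in the other direction in the normal tissue, at 0.72 (limma, adjusted p = 0.00279). On PBS, Nectin4 and Cadm4 were higher in the MMTV-PyMT tumours than in the normal tissue, by 1.27 and 1.1, and Cadm3 was lower, at -2.0 (limma, largest adjusted p = 2.81e-05). Lgals7 was higher there by 1.93 (limma, adjusted p = 2.65e-05), beside epithelial marker sums of 893 to 966 FPKM in those libraries against 439 to 565 FPKM in the normal ones, whose part was not tested.

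Between tissues on PBS, 15 list genes were called higher and 2 lower in the implanted than in the MMTV-PyMT tumours (4.28% and 3.05% of all tested genes), a split of 14 and 4 after scaling by total reads. Against the normal tissue 11 were higher and 5 lower in the implanted tumours (5.74% and 5.71%), and 6 higher and 9 lower in the MMTV-PyMT tumours (6.24% and 7.67%). The signed cGAMP difference was called greater in the implanted than in the MMTV-PyMT tumours for 4 list genes and smaller for 0 (1.85% and 0.629% of all tested genes). In the latter direction 6 had an unadjusted p under 0.05 and limma-voom called 1. The split of 4 and 0 became 1 and 2 after quantile normalization and 2 and 1 after scaling by total reads. Against the normal tissue it was greater for 8 and smaller for 2 in the implanted tumours (3.75% and 0.937%), and greater for 3 and smaller for 2 in the MMTV-PyMT tumours (1.28% and 0.472%). The split of 8 and 2 became 3 and 2 after quantile normalization and 3 and 3 after scaling by total reads.

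The genes whose levels ran most alike to each member over the 18 libraries were picked by Pearson's r of log2(FPKM + 1), as a description only, since the libraries fall into 6 groups. Parp14 (r = 0.995), Samd9l and Znfx1, all known interferon-induced genes, ran closest to Cd274. Lgals9 ran with Rnf213 (r = 0.988), Mlkl and Ifi44, and H2-T23 with Psme2 (r = 0.984), the pseudogene H2-T-ps and Psme1, of which Psme1 and Psme2 encode the proteasome activator used in antigen processing. Pvr ran with Adamts4 (r = 0.979), Pgm2 and Pdlim1, Nectin2 with Nlgn2 (r = 0.978), Cox18 and Cemip2, and Ido1, at a lower r of 0.945, with Camk2d, followed by Aldh1l1 and Hivep1. No gene was among the closest to 2 members.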

How the data were processed

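Live CD45-negative, CD31-positive ECs were sorted, 18 directional RNA libraries were sequenced, and reads were checked with FastQC, aligned with STAR 2.7 to mm10 and counted with HTSeq, per the labels and the study's methods. The deposited values are FPKM per gene; how the authors made the FPKM from counts and whether strand was used are not given in the sources used here. FPKM steps gave whole reads, within 0.02 reads plus 2e-06 of the count, for 99.99% of the 16248 genes, 9184556 to 12200414 per library. A read on 1 kb was worth 0.0753 to 0.1196 FPKM, not in proportion to total reads. No value was 0.

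Values were tested as log2(FPKM + 1) with limma 3.58.1 (R 4.3.3, trend, two-sided, one mean per group) on 13983 genes with at least 1 FPKM in at least 3 libraries; 2265 were left out. Fold changes on this scale understate those of low genes. Benjamini-Hochberg adjusted p under 0.05 with a log2 difference of at least 1 was a call. The script was tested on simulated data. The 6 genes and the lists were chosen with earlier results of these data known. Per list, at most 4 called genes were named at first, those with the largest log2 difference on cGAMP or between PBS groups. Then came chromosomal neighbours, close relatives, the 3 most alike genes per member and markers moving with a member. Havcr2, Tigit, Cd226, Vsir, Vtcn1, Cmtm4, H2-M3, H2-T10, H2-T22, H2-Q1 and the marker genes were named after their values were seen. Nothing ties a library to an experiment, so p-values measure the spread between these libraries. Libraries of a group correlated at 0.967 to 0.989 and none was a duplicate. Alternatives were other pseudocounts, filters, scalings, voom on recovered reads, fits of the compared groups alone, a replicate block and leaving out each library. A list gene is not reported here by name, though the counts include it.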

Additional observations from a re-analysis of the deposited data

Results flagged for a closer look

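For Ido1, the 3 cGAMP libraries stood above the PBS mean of their own tissue in the implanted tumours and below it in the MMTV-PyMT tumours, where the groups overlapped. In the normal fat pad libraries 1 and 3 stood above the PBS mean and library 2 was level with it (2.0 against 1.99 FPKM). The cGAMP difference was 2.7 log2 units greater in the implanted than in the MMTV-PyMT tumours, and -0.88 in the MMTV-PyMT tumours relative to the normal tissue. These differences were not tested, and the MMTV-PyMT values rested on 7 to 28 reads. Without MMTV-PyMT PBS library 1 the log2 difference there was 0.04 in place of -0.15.

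Among the list genes, limma called a difference of the cGAMP effect between tissues for the following, from comparisons that share libraries. Greater and smaller refer to the signed log2 difference, cGAMP minus PBS. Between implanted and MMTV-PyMT tumours the effect was greater by 1.57 for Cd40, 1.28 for H2-T24, 1.1 for Cmtm6 and 1.09 for Lgals8. Between implanted tumours and the normal tissue it was greater by 2.77 for Cd40, 2.61 for H2-T24, 1.38 for Cd200, 1.23 for Cd47, 1.23 for Cmtm6, 1.14 for Lgals8, 1.07 for H2-M3 and 1.01 for Vsir, and smaller for Slc7a5 (-1.78) and Vtcn1 (-1.31). Between MMTV-PyMT tumours and the normal tissue it was greater by 1.32 for H2-T24 and 1.2 for Cd40, and smaller for Vtcn1 (-1.3) and Slc7a5 (-1.06). Vsir differed on cGAMP by -0.94 in the normal tissue and by 0.07 in the implanted tumours. Slc7a5 and Vtcn1 were higher on cGAMP in the normal tissue (0.93 and 0.69). Both had negative differences in the MMTV-PyMT (-0.13 and -0.6) and implanted tumours (-0.85 and -0.61). None of the 4 calls between implanted and MMTV-PyMT tumours held under every alternative. Cd40 was lost there with a pseudocount of 0.1 and with voom (limma, adjusted p = 0.0683 and 0.141), H2-T24, Cmtm6 and Lgals8 after quantile normalization (just under 1 for H2-T24, 0.7 and 0.8 for the others), and Cmtm6 and Lgals8 also after scaling by total reads (0.92 and 0.91). Between implanted tumours and the normal tissue, Cd47, Cmtm6, Lgals8, H2-M3 and Vsir were lost under both scalings. Between MMTV-PyMT tumours and the normal tissue Cd40 was no longer called under 9 of the single-library omissions, with the replicate block (1.2, limma adjusted p = 0.056), with a pseudocount of 0.1 (0.0635) or with voom (0.275). Slc7a5 lost its call there without normal cGAMP library 2 (-0.84), and Vtcn1 without normal PBS library 2 or 3. Between implanted and MMTV-PyMT tumours Lgals8 was lost without implanted cGAMP library 1 (0.97). Between implanted tumours and the normal tissue H2-M3 was lost without normal cGAMP library 2 or implanted cGAMP library 1 (0.87 and 0.96), and Vsir without normal PBS library 3, normal cGAMP library 1 or 2, implanted PBS library 2 or 3 or implanted cGAMP library 1.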

How the results depend on the processing

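None of the members' differences between separated groups changed sign under any alternative. Of 1395 recomputed differences of the 6 genes, 1337 moved by less than the spread between libraries and 58 by more. Those 58 came under the other pseudocount, voom, quantile normalization or scaling by total reads. Leaving out any 1 library moved none by more. With 3 libraries per group such an omission can hardly move a mean by more than that spread, so nothing is read from it. The 1337 include these omissions. With voom the cGAMP difference of Cd274 in the MMTV-PyMT tumours was 6.17 in place of 5.09 and that of Ido1 in the implanted tumours 3.31 in place of 2.55. Of 99 calls of list genes, 80 held whichever single library was left out and 67 under every alternative tried.

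Counts of called list genes on cGAMP were 3 in the normal tissue with a mean of at least 5 FPKM required, and 15 in the MMTV-PyMT tumours with a pseudocount of 0.1 and also with voom. The count for implanted minus normal differences of effect was 5 after quantile normalization and 6 after scaling by total reads. For MMTV-PyMT minus normal on PBS it was 27 with a pseudocount of 0.1 and 26 with voom. With no limit on the fold the counts were 26, 24 and 40 on cGAMP in the normal, MMTV-PyMT and implanted tissues, 16 and 22 for the differences of effect of implanted tumours against MMTV-PyMT tumours and normal tissue, and 38, 36 and 39 on PBS for implanted against MMTV-PyMT, implanted against normal and MMTV-PyMT against normal. The causes were not tested.

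When each library was left out in turn, the cGAMP count in the MMTV-PyMT tumours ran from 5 to 11, the highest without cGAMP library 1. The implanted minus MMTV-PyMT difference of effect gave 4 to 7, with 7 without implanted cGAMP library 2 or MMTV-PyMT cGAMP library 2. The MMTV-PyMT minus normal difference gave 3 to 5, with 3 without normal PBS library 2 or 3 or normal cGAMP library 2.

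Replicate numbers did not pair the libraries: of 9 same-numbered pairs of PBS and cGAMP libraries, correlations of the deviations ran from -0.291 to 0.263 and 1 exceeded 0.1. With the number as a replicate block the counts were 5, 7 and 20 on cGAMP, 4, 10 and 4 for the differences of effect and 17, 16 and 15 on PBS, all within 1 of the fit without the block. The call it changed was Cd40 between MMTV-PyMT tumours and the normal tissue. Depth limits Ido1, at 7 to 242 reads per library, and Cd274 on PBS in the MMTV-PyMT tumours.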
